A study of Mus musculus with 50 samples.

Results

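The RNA polymerase II CTD phosphatases are enzymes that remove phosphate from the C-terminal domain (CTD), the repeated tail of the polymerase's largest subunit. The 6 genes described here are Rpap2, Ssu72, Ctdp1, Ctdsp1, Ctdsp2 and Ctdspl, taken by name from a table of 12819 genes, and each had a row. The cells were mouse embryonic stem cells of the V6.5 line (C57Bl/6-129), grown with LIF, and their polyA-selected RNA was sequenced. In the cells compared, both endogenous copies of Cdk12 are knocked out (Cdk12 -/-) and a transgene for Flag- and HA-tagged Cdk12 is switched on by doxycycline (Dox). Cells kept in 1 µg/mL Dox were the 0 h group, and cells taken out of Dox for 24 or 48 h were the Cdk12-depleted groups. Each time had 4 libraries, which were 2 biological replicates of each of 2 clones, numbers 28 and 36. Parental cells of clone 21, in which Cdk12 is flanked by LoxP sites but intact (Cdk12 Fl/Fl, no transgene) and which were given Dox for 17 days, served as the control for Dox withdrawal with 2 libraries per time. The labels do not name the promoter that drives the transgene beyond its response to Dox.

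Phosphates on the CTD are added by kinases as the polymerase leaves the promoter and elongates, and they are taken off again by phosphatases so that the enzyme can be reused. Kinases of initiation such as Cdk7 act early, and Cdk9, Cdk12 and Cdk13 act during elongation. Rpap2 and Ssu72 remove marks that are placed early in the cycle, Ctdp1 (known as FCP1) removes marks of elongation and returns the polymerase to a form that can initiate, and Ctdsp1, Ctdsp2 and Ctdspl are small phosphatases known for holding neuronal genes silent together with the repressor REST. These roles come mainly from work in yeast and human cells.

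The deposited values were the authors' own comparisons of each later time with 0 h, with no value per library, so no SD, replicate number or depth can be set beside a gene. For each time the table gives a log2 change, a posterior probability (PP) of differential expression, an adjusted p-value whose test and groups are not stated, and a mark for an effect of Dox. It gives 1 value per gene, so full-length and shortened transcripts of a gene cannot be told apart. A gene was called where PP was at least 0.95. Throughout, a negative change means less RNA at the later time than at 0 h. The headers name 0 h first, and this direction makes Cdk12 negative. With the opposite reading every rise and fall would be exchanged. The authors' deposited table gives Cdk12 a change of -0.61 at both times, with a PP of 0.0704 at 24 h and 0.266 at 48 h, so Cdk12 was not called. All 10 stem cell markers searched for (Pou5f1, Nanog and others) had rows and none was called. The 48 h changes of these 10 ran from -0.46 to 0.39, with a median of 0.05. However, the table holds no expression level against which to check the cell type. Among markers of other cell types at 48 h, 2 of 5 for primitive endoderm (Gata4 and Gata6) were called higher. So were 1 of 4 neural and 1 of 3 fibroblast genes with rows, and none of 4 trophoblast and 2 mesoderm genes was called. Changes at 48 h ran from -0.97 to 2.53 for the neural genes, with a median of -0.36. They ran from -0.09 to 0.89 for the fibroblast genes (median 0.29) and from -0.34 to 0.85 for primitive endoderm (median 0.75). The 2 mesoderm genes stood at -1.48 and 0.65. The 4 trophoblast genes, though not called, had 48 h changes of 0.74 to 1.49 in the authors' deposited table, with a median of 1.27. Their part in the changes below was not tested. In bulk RNA, fewer cells of a type and less RNA per cell cannot be told apart.

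After 48 h without Dox, transcripts of Rpap2 and Ssu72 had fallen and those of the other 4 phosphatase genes were not called. In the authors' deposited table Rpap2 stood at 43.1% of its 0 h level and Ssu72 at 57.5%. At the same time the other 4 lay between 103% and 122% of their 0 h level in the authors' deposited table. Called falls therefore numbered 2 of 6, where 3.97% of all genes with a PP were called lower at 48 h. No member was called higher, against 3.72% of all genes. At 24 h none of the 5 members with a PP was called in either direction, against 0.679% of all genes lower and 0.45% higher. With so few members, chosen with earlier results of these data known, these shares describe the genes and are no test of the group.

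The sequences ahead of the first annotated starts of the pair that fell differ in base composition from that of Ctdspl, which was not called. Ctdspl had the highest share of G and C among the members with sequence, and further starts of Rpap2 are described below. Each line holds the 250 bases before the start on the plus strand, from RefSeq on GRCm38.p6, 5′ to 3′. Capitals mark matches on either strand to 3 promoter motifs: the CCAAT box (CCAAT), the GC box (GGGCGG) and the TATA box (TATAAA).
Rpap2, chr5:107597123-107597372: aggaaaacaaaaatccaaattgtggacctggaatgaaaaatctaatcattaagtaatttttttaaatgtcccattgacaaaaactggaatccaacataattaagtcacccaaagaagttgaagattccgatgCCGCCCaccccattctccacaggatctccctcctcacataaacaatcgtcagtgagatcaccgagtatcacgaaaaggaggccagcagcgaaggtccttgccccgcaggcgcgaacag
Ssu72, chr4:155704565-155704814: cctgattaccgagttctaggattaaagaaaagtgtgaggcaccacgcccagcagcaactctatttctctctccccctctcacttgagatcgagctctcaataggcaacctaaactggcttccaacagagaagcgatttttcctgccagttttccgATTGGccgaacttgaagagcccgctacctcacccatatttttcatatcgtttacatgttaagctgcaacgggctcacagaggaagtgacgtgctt
Ctdspl, chr9:118926286-118926535: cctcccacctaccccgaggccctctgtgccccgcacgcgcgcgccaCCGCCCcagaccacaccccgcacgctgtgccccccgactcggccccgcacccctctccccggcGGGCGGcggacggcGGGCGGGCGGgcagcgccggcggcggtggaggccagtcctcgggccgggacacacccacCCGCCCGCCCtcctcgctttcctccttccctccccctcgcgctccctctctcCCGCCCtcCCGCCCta

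The Rpap2 stretch was 44.0% G and C with 9 CG dinucleotides, and the Ssu72 stretch 48.0% with 10. Ctdsp2 held 66.8% with 20, Ctdsp1 73.6% with 29, and Ctdspl 80.0% with 33. At the first annotated start, then, both genes that fell lay below the median of 52.4% over 32851 RefSeq windows, and the 3 small phosphatase genes lay above it. In CG dinucleotides, however, all 5 genes lay above the median of 6. The order in G and C rests on the first start alone. RefSeq gives Rpap2 2 further starts, with 76.0% and 64.8% G and C before them, and Ctdsp2 a second one with 52.0%. Which start these cells use is not shown by the table. Before the first start, a GC box stood once in Rpap2, Ctdsp1 and Ctdsp2 alike, in no copy in Ssu72 and 8 times in Ctdspl, counting overlapping matches. The second Rpap2 start had 5. Ssu72 and Ctdsp2 each held 1 CCAAT box, and no TATA box was found before any of the 5 genes. Of all windows 32.7% held a GC box, 33.8% a CCAAT box and 12.4% a TATA box. Ctdp1 is named without sequence.

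**Figure D1:**
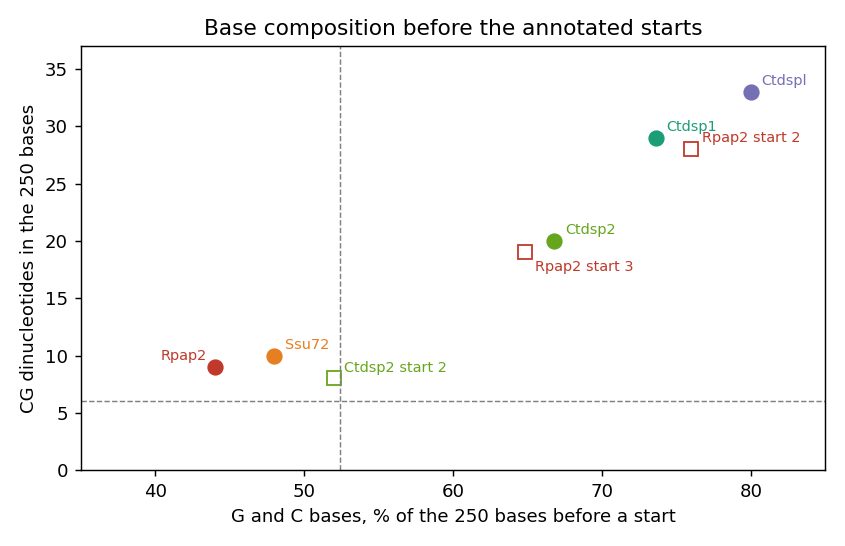
Each point is 1 annotated start: the x axis gives the percentage of G and C in the 250 bases before it, the y axis the number of CG dinucleotides there, and dashed lines mark the medians over 32851 windows (52.4% and 6). Filled circles are the first start of a gene and open squares are further starts. Rpap2 at 44.0% and Ssu72 at 48.0% lie left of the median, while the further Rpap2 starts at 76.0% and 64.8% lie among the small phosphatases.

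Rpap2 encodes a phosphatase that also helps bring newly assembled polymerase into the nucleus. In the authors' deposited table its log2 change was -0.66 at 24 h, with a PP of 0.275 and an adjusted p of 0.957. By 48 h it was -1.21, with a PP of 0.9997 and an adjusted p of 0.00216 in the authors' deposited table. At 48 h Rpap2 thus passed the thresholds of both deposited statistics, and at 24 h it passed neither. The groups behind the adjusted p are not stated, so it may not measure the same comparison. Rpap2 carried no Dox mark. Of 12766 genes with a change at 48 h, 187 stood at or below Rpap2, or 1.46%. Among the 493 called falls at 48 h, 119 were at least as large, or 24.1%. A change of this size did not by itself give a call. Of 99 genes within 0.1 log2 units of Rpap2 at 48 h, Rpap2 included, 55 were called.

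Ssu72 encodes a phosphatase bound to the machinery that cuts and polyadenylates transcripts, where it partners with symplekin. The authors' deposited table placed it at -0.36 at 24 h, with a PP of 0.469 and an adjusted p of 1. Its change at 48 h was -0.80, with a PP that rounds to 1.00 and an adjusted p of 0.0481 in the authors' deposited table. The change of Ssu72 was smaller than that of Rpap2, a difference that was not tested. The adjusted p of Ssu72 lay just under 0.05. At 48 h 1.99% of genes with an adjusted p passed that level with a negative log2 change. In contrast to Rpap2, Ssu72 carried the Dox mark at 48 h, as did 149 of the 954 called genes, or 15.6%. All 149 marked genes were called ones, so no uncalled gene carries the mark at 48 h. The table does not define the mark, and the part of Dox withdrawal itself in the fall of Ssu72 was not tested. With marked genes left out, 1 member remained called, Rpap2. At this size calls were less common, with 118 of 329 genes called within 0.1 log2 units of Ssu72, Ssu72 included.

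The changes of both genes were larger at 48 h than at 24 h. From 24 to 48 h the log2 change of Rpap2 moved by -0.56 and that of Ssu72 by -0.44, which leaves 67.9% and 73.9% of their 24 h level. The median over all 493 genes called lower at 48 h was -0.42 at 24 h and -0.85 at 48 h. Rpap2 was therefore lower than that median at both times, and Ssu72 was near it. The 24 h and 48 h changes share their 0 h libraries, and no test of 48 h against 24 h can be made without values per library.

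**Figure D2:**
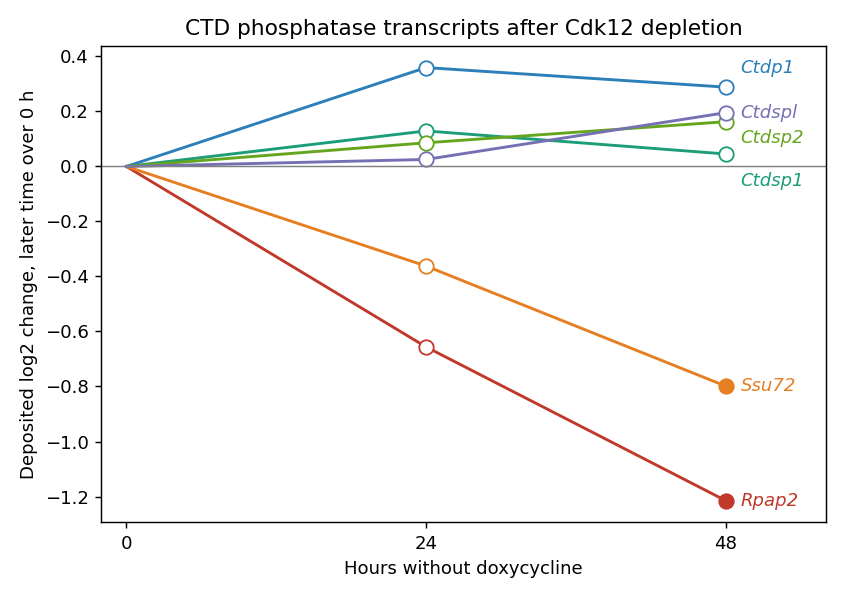
Deposited log2 change over 0 h (y axis) against hours without doxycycline (x axis) for the 6 phosphatase genes, 1 line each, with 0 h set at 0 and no error bars because the table holds no replicate values. Filled points were called at a PP of at least 0.95. Only Rpap2 (-1.21) and Ssu72 (-0.80) at 48 h are filled, and the other 4 genes lie between 0.03 and 0.36 at both later times.

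Ctdp1 encodes the phosphatase that recycles the polymerase after elongation. Its changes in the authors' deposited table, 0.36 at 24 h and 0.29 at 48 h, were above those of the other members, with adjusted p-values of 1 and 0.761. Its PP was 0.892 at 48 h, below the call. Of 1882 genes with a PP within 0.1 log2 units of Ctdp1 at 48 h, Ctdp1 included, 36 had a PP at least as high. The median PP of the 1882 was 0.0361. None of the 1882 was called, and no change that small was called anywhere in the table. At 48 h 10009 genes with a PP lay below 0.52, the smallest called change, and their largest PP was 0.9497. Of the 358 genes without a PP at 48 h, 356 lay below it too. Ctdp1 was not called on its own PP, and the lack of calls at this size was shared by the whole table and not particular to Ctdp1. At 24 h Ctdp1 has no PP in the table. It is 1 of 156 genes without one, whose changes were at least 0.18 log2 units in either direction, with a median size of 0.35. Of these genes 154 lay below 0.52, the smallest change of any called gene at 24 h, as did 11712 of the 12663 genes with a PP. The largest PP among those 11712 genes was 0.9496, just under the call. Whether PP values of 0.95 or more were left blank for small changes was not tested. The reason for the missing value is not stated, so whether Ctdp1 would have passed at 24 h is unknown. It can be described there by its change only.

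The small phosphatases Ctdsp1, Ctdsp2 and Ctdspl lay close to their 0 h level. The authors' deposited table gives 24 h changes of 0.13 for Ctdsp1, 0.09 for Ctdsp2 and 0.03 for Ctdspl. Their 48 h changes in the authors' deposited table were 0.05, 0.16 and 0.20, in the same order. Their PP did not exceed 0.0729, reached by Ctdspl at 48 h, and their adjusted p-values were 0.900 or higher. All 3 genes lay above 0 at both times, as did the median of all genes, 0.01 at each time. Without library values no interval can be put on these changes.

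A feature shared by the 3 small phosphatase genes, and not by Rpap2, Ssu72 or Ctdp1, is a microRNA gene of the miR-26 family within the gene's span. Mir26b lies in Ctdsp1, Mir26a-2 in Ctdsp2 and Mir26a-1 in Ctdspl. Their main mature forms are shown because they have the same seed (bases 2 to 8, in capitals), and Mir26a-1 and Mir26a-2 give the same mature sequence. The polyA-selected libraries did not measure mature microRNAs, so the values above concern the host genes alone. Sequences are from RefSeq, GRCm38.p6.
mmu-miR-26a-5p: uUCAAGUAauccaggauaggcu
mmu-miR-26b-5p: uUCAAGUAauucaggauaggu

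**Figure D3:**
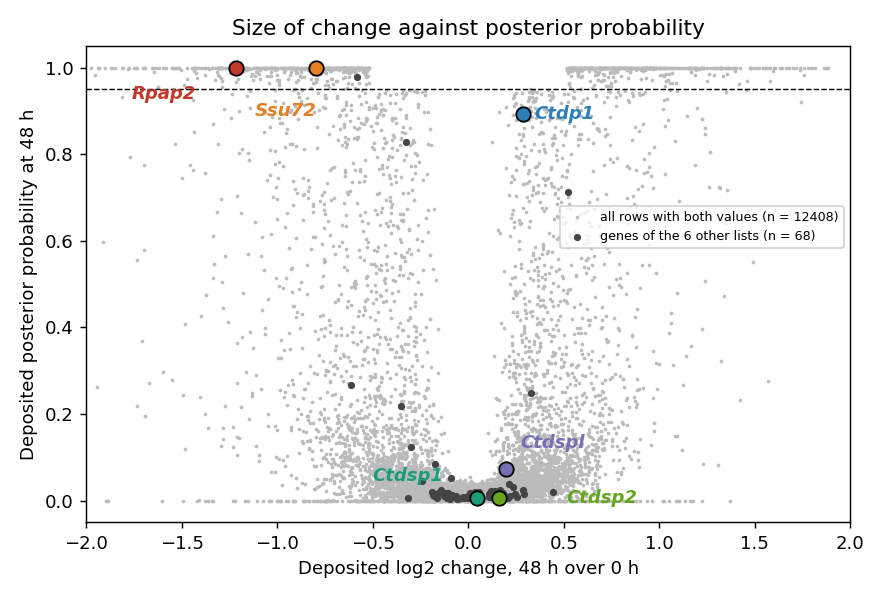
Each grey point is 1 of 12408 genes, with its deposited log2 change at 48 h on the x axis, cut at 2 log2 units to either side (38 genes lie outside), and its posterior probability on the y axis; dark points are 68 genes of related lists, coloured points the phosphatases, and the dashed line is at 0.95. Rpap2 and Ssu72 sit at the top left, Ctdp1 stands at 0.892 with a change of 0.29, and the 3 small phosphatases lie at the bottom.

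Some of these rows share their locus with other genes. In RefSeq the start of Rpap2 overlaps that of Glmn on the opposite strand by 516 bases, so the first Rpap2 stretch printed above lies within the span of Glmn. Glmn, an inhibitor of cullin-RING ubiquitin ligases that was chosen for mention after its values were seen, had changes in the authors' deposited table of -0.32 at 24 h and -0.74 at 48 h. It was not called, with a PP of 0.250 and an adjusted p of 0.446 at 48 h in the authors' deposited table. Rpap2 also overlaps the noncoding gene A930041C12Rik by 3.60 kb, and Ssu72 overlaps 1500002C15Rik by 8.54 kb, both on the opposite strand and without rows. No source used here says whether counting used strand, so reads of such partners cannot be told apart from those of the phosphatases. A pseudogene of Ctdsp2 is annotated as well, and its share of reads was not tested. By annotated span Rpap2 covers 64.5 kb and Ssu72 29.1 kb, and Ctdp1 covers 70.8 kb, Ctdspl 118 kb, Ctdsp2 21.3 kb and Ctdsp1 5.68 kb. The part of gene length in the changes was not tested.

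Of 70 genes that work with the phosphatases or against them, in 6 lists, 69 had a PP at 24 h and 68 at 48 h. None was called at 24 h, against 0.679% of all genes lower and 0.45% higher. At 48 h 1 was called lower, Cstf3, and none higher, against 3.97% and 3.72% of all genes. Their median change was 0.01 and 0.02, against 0.01 for all genes at both times. The phosphatase genes had a median of 0.06 at 24 h and 0.10 at 48 h, so the falls of Rpap2 and Ssu72 are not seen in the median of the 6.

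Among 10 partners of Rpap2 in polymerase assembly and import, 0 of 10 were called at either time and the 48 h changes ran from -0.17 to 0.52. Gpn3, a GTPase of polymerase import, was highest at 0.52 with a PP of 0.714 in the authors' deposited table. Rpap3, an assembly factor of the same complex, stood at 0.29 with a PP of 0.0255 in the authors' deposited table.

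Among 15 cleavage and polyadenylation genes around Ssu72, Cstf3 alone was called lower at 48 h and none higher. Cstf3, a subunit of the cleavage stimulation factor, fell by 0.58 with a PP of 0.978 in the authors' deposited table, while its adjusted p of 0.242 there did not pass 0.05. The authors' deposited table has Fip1l1, a partner of the poly(A) polymerase, at 0.44 and the termination factor Pcf11 at 0.29 at 48 h, neither of them called. The list's median was 0.00 at 48 h.

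The 5 partners of Ctdp1 held no called gene. The subunits of the initiation factor TFIIF lay on opposite sides of 0 at 48 h, Gtf2f1 at 0.22 and Gtf2f2 at -0.30 in the authors' deposited table. In the REST complex, none of 11 genes with a PP at 24 h or 10 at 48 h was called, and the 48 h median was 0.07. Its largest changes in the authors' deposited table were those of the demethylase Kdm1a, 0.38 without a PP, and the corepressor Rcor1, 0.33 with a PP of 0.248.

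The opposing enzymes, 15 CTD kinases and their cyclins, held no called gene at either time, with a 48 h median of 0.03. Cdk12 was lowest there, followed by Cdk7 at -0.35 with a PP of 0.219 in the authors' deposited table. For Ccnk, the cyclin of Cdk12, the authors' deposited table gives -0.02 at 48 h, and for the related kinase Cdk13 it gives -0.19. Of 14 further phosphatases and scaffolds of the CTD, none of the 13 with a PP was called at either time. The scaffold Rprd2 was highest, at 0.29 without a PP at 48 h in the authors' deposited table.

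**Figure D4:**
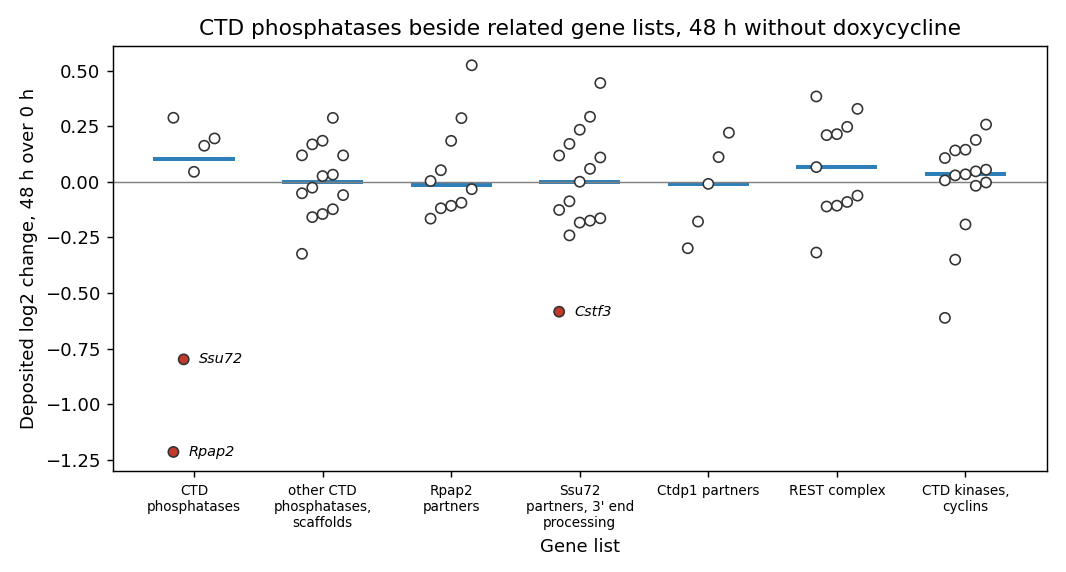
Deposited log2 change at 48 h (y axis) for each gene of the phosphatase group and of the 6 related lists (x axis), 1 circle per gene, red where called at a PP of at least 0.95, with blue bars at list medians. Rpap2 at -1.21 and Ssu72 at -0.80 lie below all 70 genes of the other lists, of which Cdk12 at -0.61 is lowest.

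Among the genes whose pair of changes lay nearest to that of Rpap2 over the 2 comparisons were Ahsg and Lmf1, at distances of 0.0113 and 0.0271 log2 units. Lmf1, a maturation factor of lipases, had changes of -0.68 and -1.22 and a PP of 0.998 at 24 h already, per the authors' deposited table, where Rpap2 had 0.275. Nearest to Ssu72 were Rasgrp2, Fahd2a and Zfp783, at 0.00853, 0.0111 and 0.0139 log2 units. Rasgrp2, an exchange factor for Rap proteins, had changes of -0.37 and -0.79, per the authors' deposited table, and like Ssu72 it was called and Dox-marked at 48 h. Likeness over 2 values says only that the sizes match.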

How the data were processed

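The RNA part of the study has 18 libraries, 12 of knockout and 6 of parental cells, with RNA integrity numbers of 9.1 to 10 per the labels. A further 32 chromatin immunoprecipitation and control libraries are not analysed here. The submitters' processing notes list tools without saying what each did, among them RSEM, DESeq 1.22.1 and STAR 2.4.1d, and both mm10 and mm9 as builds. Per the file headers, the authors' table holds a PP, a log2 change and an adjusted p-value for each time, already reduced from libraries to comparisons. Depth is unknown, and replicate spread is present only inside those statistics. The replicates are called biological duplicates in the study's design.

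Changes were multiplied by -1 to read as later time over 0 h. Genes called at a PP of at least 0.95 were counted over all rows with a PP, 12663 at 24 h and 12408 at 48 h, with pandas 2.3.3. The counting step was run on simulated data in which the called genes were set in advance. That run checks the counting and not the calls themselves. Alternatives were a PP of 0.99 or 0.90, minimum changes of 1.5-fold and 2-fold, the adjusted p at 0.05, and removal of Dox-marked or predicted genes. Annotation and sequences came from RefSeq GRCm38.p6 by symbol, which matched 11465 of 12819 rows. Named genes were the members, called genes of the lists, the 2 uncalled ones per list with the largest 48 h change, Cdk12, Ccnk and Cdk13, and the 3 nearest to each called member. Of the genes this rule gives, 2 are not reported here. The members and lists were chosen with earlier results of these data known.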

Additional observations from a re-analysis of the deposited data

How the results depend on the processing

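The 2 called falls at 48 h remained 2 at a PP of 0.99 or 0.90, with a 1.5-fold minimum change and by the adjusted p at 0.05. With a 2-fold minimum change 1 was left, Rpap2, since Ssu72 fell less than that. With Dox-marked genes left out 1 was left, again Rpap2, because Ssu72 carries the mark. In an alternative added after the data were seen, genes without a PP were counted as called, which gave 1 member called higher at 24 h, Ctdp1, in place of 0. The other 29 of 32 alternative counts and shares kept their value to within 1.5 times, but part of them could not have moved. Where no member was called, a PP of 0.99, a minimum change or removal of Dox-marked genes could only return 0. Counting genes without a PP as called could not move the 48 h counts, since every member had a PP then. For single members only the adjusted p, a PP of 0.99 and the 1.5-fold minimum were tried. The 34 of these alternatives that could be computed left the gene on its side of the threshold. For a member that was not called, a PP of 0.99 or a 1.5-fold minimum could not have done otherwise. Ctdp1 at 24 h could be judged by the adjusted p alone. The 2-fold minimum and the removal of Dox-marked genes were not among these 34, and either takes Ssu72 at 48 h out of the calls. Called falls at 48 h were 3.90% of genes without predicted names and 3.85% where genes without a PP counted as not called.

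No paired analysis was possible because the table holds no value per library. Leaving out a replicate or clone was not possible for the same reason, and the depth behind each gene is unknown.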
